A study of Mus musculus with 24 samples.

Results

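The comparison described here is that of S14-treated against untreated mouse macrophages at 18 h, which rests on 8 of the 24 libraries of the study. Its members were chosen by their labels, 4 libraries of cells stimulated with S14 for 18 h and 4 libraries of untreated cells of the same time. S14 is the sphingomyelin d18:1/14:0, a membrane sphingolipid, given at 30 µM. The labels call the other group untreated, with neither S14 nor lipopolysaccharide (LPS), while the headers of its columns in the count table read Veh; the sources used here do not say whether a vehicle was given, so that an effect of a vehicle cannot be told apart from that of S14. Cells of all groups were bone marrow-derived macrophages of C57BL/6J wild-type mice, grown in medium conditioned by L929 cells. For comparison, cells given S14 for 3 h, cells given LPS at 100 ng/mL for 18 h and untreated cells of 3 h are used below, with 4 libraries each. The design text gives 4 mice, but no label ties a library to a mouse, so that the p-values measure only the spread between libraries. For the tests of genes that spread was estimated from all 24 libraries, those of cells given LPS for 3 h among them.

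Macrophages grown from bone marrow are phagocytes that depend on the growth factor M-CSF, which L929 cells secrete, and that still divide in culture. Lipids and bacterial products sensed by their receptors lead to a first wave of cytokine transcripts through NF-kB and interferon signalling, and later to secreted antimicrobial proteins and changed metabolism. Sphingomyelin is a main lipid of the plasma membrane and can be broken down to ceramide, which feeds sphingolipid signalling. The comparison asks which transcripts still differ long after the lipid was added.

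Reads came from the 3' ends of polyadenylated transcripts, so that levels of different genes are not compared with each other here. Total counts ran from 4307445 to 4831470 per library with S14 and from 4729750 to 6350251 in untreated cells, and 11717 genes passed the filter on low counts. Macrophage markers were present in all 8 libraries: the sum over 11 defining markers, in CPM, the reads of a gene scaled to a common library size, ran from 32730 to 33870 CPM with S14 and from 32420 to 46530 CPM in untreated cells. Without Lyz2, the most abundant of them, the sum ran from 9128 to 9352 CPM with S14 and from 7765 to 9305 CPM in untreated cells. Replicate 4 of the untreated cells stood apart from its group, with a spread of log2 deviations of 0.518, against 0.327 to 0.345 in the other untreated libraries. It also held the fewest genes with a read (13405) and the smallest share of spike-in reads. Many of the results that depend on it are given with and without it. Mitochondrial transcripts made up 1.16% ± 0.104 of counts with S14 and 1.55% ± 0.0865 in untreated cells (SD, n = 4 each, exact permutation p = 0.0286, two-sided, the smallest that 4 against 4 can give). Their part in the results below was not tested.

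Libraries were scaled by TMM, so that a level is relative to that of a typical gene. Spike-in RNAs, synthetic transcripts added by the authors, made up 0.0452%, 0.0543%, 0.0526% and 0.0438% of reads in the 4 S14 libraries, against 0.0380%, 0.0418%, 0.0333% and 0.0134% in the untreated libraries. All S14 libraries lay above all untreated ones. The means were 0.0490% ± 0.00524 with S14 and 0.0316% ± 0.0126 in untreated cells (SD, n = 4 each, exact permutation p = 0.0286, two-sided, the smallest possible). Without untreated replicate 4 the difference was 0.0113 percentage points, against 0.0174 with it. Scaled to these reads, the median over all genes was a log2 fold change of -0.98, or -0.49 without untreated replicate 4, against -0.02 with TMM. More spike-in RNA and less cellular RNA in a sample cannot be told apart from these shares, and the sources used here do not give the amount added. Of the 30 pathway lists used below, 18 had a median above 0 with TMM, or 21 without untreated replicate 4. Scaled to spike-in reads without untreated replicate 4, 4 had one, those of cytokines, antimicrobial effectors, NRF2 and the integrated stress response. With all libraries, 1 had one, that of antimicrobial effectors.

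S14 changed 2844 genes at 18 h, 1480 of them higher (12.6% of the genes tested) and 1364 lower (11.6%), by edgeR's quasi-likelihood F test at an adjusted p under 0.05. Of these, 281 (2.4% of the genes tested) were higher by at least 2-fold and 424 (3.62%) were lower by at least 2-fold. Without untreated replicate 4, 2536 genes passed; 2223 of the 2844 kept their call in the same direction, 621 lost it and none passed in the opposite direction. With spike-in scaling 106 genes were called higher and 7533 lower of 11717 tested, or 133 higher and 2157 lower of 11905 without untreated replicate 4. The counts of lists below stand against these shares and counts over all genes of the same scaling. All 4 S14 libraries lay above all 4 untreated ones for 1432 genes (12.2% of those tested) and below them for 1265 (10.8%). The 12 highest genes that met the level and separation rule were Marco, Saa3, Lcn2, Ccl5, Hp, Slpi, Mmp14, Gsta3, Ccl8, Cxcl9, Cfb and Acod1. They encode a scavenger receptor, acute-phase and antimicrobial proteins, chemokines, a complement factor, a matrix protease, a glutathione transferase and the itaconate-forming enzyme. The 12 lowest were Ankle1, Pimreg, Kif2c, Ighm, Gprc5c, Cilp2, Ube2c, Pbk, Hmmr, Ccna2, Prr11 and Kif23, most of which are known from cell division. For these highest and lowest genes, groups that do not overlap were a condition of the choice, so their separation is no further result. Members of lists named below for the size of their change were chosen in a way that favours separate groups.

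**Figure D1:**
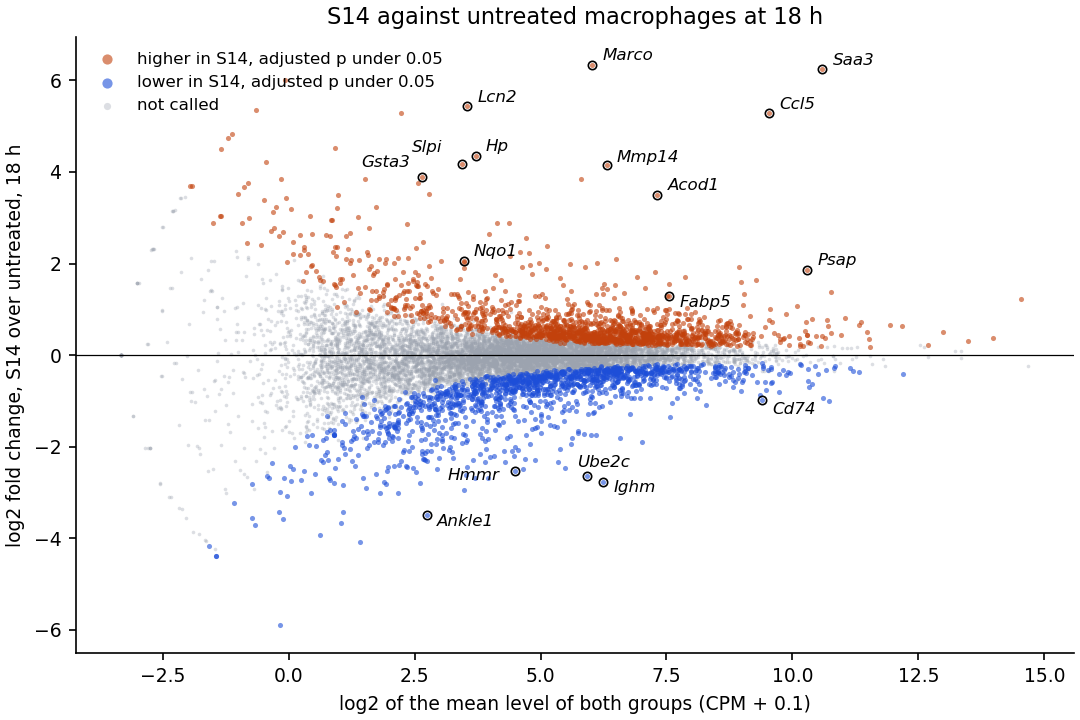
Log2 fold change of each tested gene, S14 over untreated at 18 h (vertical axis), against the log2 of its mean level in both groups (horizontal axis, CPM plus 0.1), with genes higher in S14 in orange, lower in blue and not called in grey; with spike-in scaling the median of all genes moves to -0.98. Marco (6.34) and Saa3 (6.24) lie at the top, and the labelled division genes Ube2c (-2.65) and Hmmr (-2.53) lie below the line with Ighm (-2.78).

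Most antimicrobial and acute-phase effectors rose. Of 19 tested members of this list 14 were higher and none was lower, with a median log2 fold change of 1.57, against -0.02 over all genes. Without untreated replicate 4 the counts were 14 and 0. With scaling to spike-in reads without that library, 10 were called higher and 0 lower; with spike-in scaling of all libraries it was 8 and 2. Marco, a scavenger receptor that binds bacteria and particles, had 115, 90.4, 157 and 152 CPM in the S14 libraries, against 0.968, 1.74, 1.54 and 1.93 CPM in the untreated libraries. The log2 fold change was 6.34 ± 0.39 SE (adjusted p = 2.2e-10). Saa3, an acute-phase serum amyloid made by macrophages, had 2544, 2901, 3764 and 2993 CPM with S14, against 49.0, 50.3, 29.4 and 33.1 CPM without it (6.24 ± 0.20, adjusted p = 1.6e-15). S14 replicate 3 was the highest. Lcn2, which encodes the siderophore-binding lipocalin 2, had 13.2, 18.1, 31.0 and 28.3 CPM with S14, against 0.581, 0, 0 and 1.58 CPM in untreated libraries, of which 2 held no read (5.43 ± 0.58, adjusted p = 7.5e-07).

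Lower down the same list, Hp, the haemoglobin scavenger haptoglobin, averaged 24.9 ± 5.24 CPM with S14 and 1.184 ± 0.372 CPM in untreated cells (SD, n = 4 each; log2 fold change 4.35 ± 0.27 SE). Slpi, a secreted inhibitor of neutrophil proteases, averaged 20.6 ± 3.80 CPM with S14 and 1.09 ± 0.784 CPM without (4.18 ± 0.39). Separate groups were part of the rule that named both genes. Cfb, factor B of the alternative complement pathway, averaged 12.6 ± 3.92 CPM with S14 and 1.09 ± 1.07 CPM in untreated cells (3.51 ± 0.34). Acod1, which makes the antimicrobial metabolite itaconate from a citrate cycle intermediate, had 285, 252, 361 and 274 CPM with S14, against 35.6, 27.98, 22.2 and 18.4 CPM in untreated libraries (3.50 ± 0.13, adjusted p = 2.1e-18). These 4 genes kept their call without untreated replicate 4 and under both spike-in scalings. Nos2, the inducible nitric oxide synthase of activated macrophages, was at a low level in all libraries, with 9, 7, 24 and 17 reads in the S14 libraries, against 4, 0, 5 and 0 reads in untreated libraries (2.95 ± 0.54, adjusted p = 0.00017). Of the list of arginine, nitric oxide and itaconate metabolism, which shares Acod1 and Nos2, 8 of 21 members were higher and 0 lower (median 0.24). Scaled to spike-in reads without untreated replicate 4, the median was -0.16 and 3 were higher and 2 lower. There Ass1, which regenerates arginine from citrulline, averaged 53.7 ± 9.36 CPM with S14 and 14.7 ± 9.72 CPM without (1.88 ± 0.25).

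**Figure D2:**
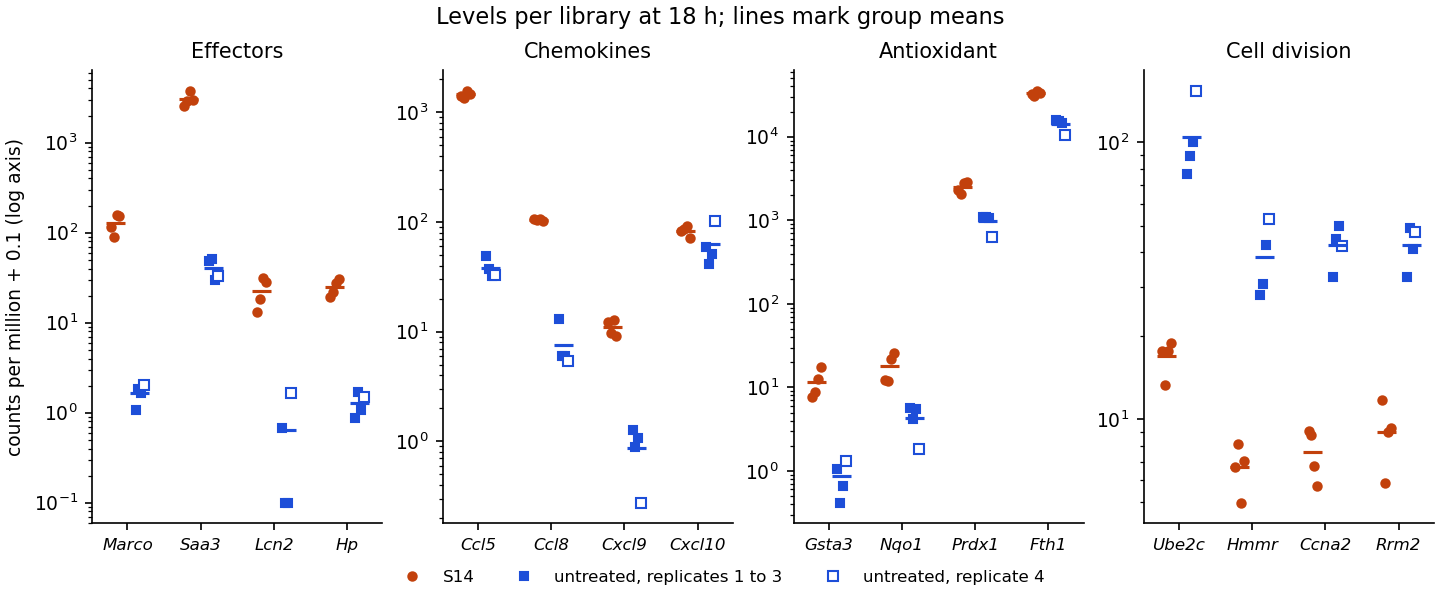
Level of 16 genes in each of the 8 libraries (vertical axis, CPM plus 0.1, log axis), S14 in orange circles and untreated in blue squares, with replicate 4 of the untreated cells open and group means as lines. The groups are separate for 15 of the 16 genes, and for Cxcl10 untreated replicate 4 lies above the S14 libraries. For those among the 12 highest and 12 lowest, separate groups were a condition of the choice.

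The 300 bases around the annotated start of the 3 leading genes of the effector list are given because these genes carry the strongest response. They run from 250 bases before to 50 after the start in RefSeq (GRCm38.p6), 5' to 3' on the gene's strand. Capitals mark matches to an NF-kB (kappaB) motif, GGGNN followed directly by TTTCC on either strand, where N is any base. A match is a description, not a site or a cause; no match means only that these letters are absent from the window. Marco lies on chr1:120504975-120505274, minus strand, Saa3 on chr7:46715627-46715926, minus strand, and Lcn2 on chr2:32387690-32387989, minus strand. The window of Marco holds 1 match, and those of Saa3 and Lcn2 hold none. The motif is in 1.76% of the 8804 windows of tested genes, and in 2 of 16 windows of the effector list.
Marco: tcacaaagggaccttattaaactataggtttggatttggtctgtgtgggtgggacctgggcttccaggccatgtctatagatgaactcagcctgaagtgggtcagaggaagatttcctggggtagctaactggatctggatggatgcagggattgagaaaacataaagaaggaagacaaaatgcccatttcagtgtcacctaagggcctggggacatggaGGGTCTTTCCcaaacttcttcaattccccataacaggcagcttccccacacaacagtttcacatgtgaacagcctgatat
Saa3: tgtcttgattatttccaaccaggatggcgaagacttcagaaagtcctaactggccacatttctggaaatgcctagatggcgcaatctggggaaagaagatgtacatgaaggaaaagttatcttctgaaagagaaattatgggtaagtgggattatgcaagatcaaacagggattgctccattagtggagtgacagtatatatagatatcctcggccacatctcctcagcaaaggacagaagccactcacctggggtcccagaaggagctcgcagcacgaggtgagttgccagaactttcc
Lcn2: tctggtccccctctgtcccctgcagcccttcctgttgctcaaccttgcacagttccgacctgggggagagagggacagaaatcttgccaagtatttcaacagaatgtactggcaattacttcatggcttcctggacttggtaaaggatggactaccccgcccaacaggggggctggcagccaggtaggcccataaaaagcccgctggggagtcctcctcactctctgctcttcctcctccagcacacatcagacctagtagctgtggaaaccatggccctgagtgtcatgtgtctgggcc

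Inflammatory cytokines and chemokines ranged from genes far above untreated levels to genes near or below them. Of 31 tested members 11 were higher and 2 lower (median 0.48). With scaling to spike-in reads without untreated replicate 4 it was 10 and 3, and with all libraries 8 and 10 with a median below 0. Ccl5, a chemokine for T cells and monocytes, had 1418, 1357, 1571 and 1475 CPM with S14, against 48.6, 37.5, 31.9 and 32.7 CPM in untreated libraries (5.28 ± 0.11, adjusted p = 1.2e-33). The 4 S14 libraries were close to each other. Ccl8, a monocyte chemokine, had 107, 104, 107 and 102 CPM with S14, against 13.0, 5.85, 5.87 and 5.25 CPM without it (3.84 ± 0.17, adjusted p = 3.2e-19), with untreated replicate 1 highest of its group. Cxcl9, an interferon-gamma-induced chemokine, averaged 10.9 ± 1.80 CPM with S14 and 0.776 ± 0.428 CPM in untreated cells (3.76 ± 0.58, adjusted p = 7.7e-05). Its call was not made by limma voom with library weights (adjusted p = 0.125).

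Tnf, the tumour necrosis factor gene, had 19.3, 18.1, 19.5 and 16.8 CPM with S14, against 15.1, 14.7, 16.5 and 12.8 CPM in untreated libraries. All S14 values were above the untreated ones, but the gene did not pass the test (0.32 ± 0.13, adjusted p = 0.064; -0.23 with spike-in scaling without untreated replicate 4). Il1b, which encodes the interleukin-1β precursor, had 12.8, 9.06, 17.5 and 12.6 CPM with S14, against 1.94, 5.06, 1.54 and 3.85 CPM in untreated libraries (2.06 ± 0.59, adjusted p = 0.015). The groups did not overlap, yet the adjusted p was 0.051 when untreated replicate 3 or untreated replicate 4 was left out. Il6 had 1 read over the 4 S14 libraries and 0 over the untreated ones, so no fold is given. Il10, an anti-inflammatory cytokine, averaged 10.7 ± 2.72 CPM with S14 and 7.75 ± 3.35 CPM without (0.48 ± 0.24, adjusted p = 0.15, or 0.030 without untreated replicate 4). Cxcl10, an interferon-induced chemokine, had 83.1, 86.4, 92.4 and 71.2 CPM with S14, against 58.8, 41.1, 50.5 and 102 CPM in untreated libraries. Only untreated replicate 4 overlapped with the S14 group. The log2 fold change was 0.41 ± 0.19 (adjusted p = 0.14) with it and 0.74 (adjusted p = 4.8e-05) without it.

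Among NF-kB subunits and feedback regulators 12 of 28 members were higher and 1 lower, with a median of 0.24. Scaled to spike-in reads the median was below 0, with 1 higher and 2 lower when untreated replicate 4 was left out and 1 and 15 when it was kept. Socs3, an inhibitor of cytokine receptor signalling, had 19.5, 33.8, 43.0 and 26.5 CPM with S14, against 4.84, 4.74, 1.54 and 5.95 CPM without it (2.88 ± 0.28, adjusted p = 1.0e-07). The S14 values were scattered but lay above every untreated value. Ier3, a stress-induced survival gene, averaged 83.7 ± 8.47 CPM with S14 and 38.6 ± 5.36 CPM in untreated cells (1.12 ± 0.13). Irak3, which restrains Toll-like receptor signalling, averaged 50.3 ± 2.95 CPM with S14 and 28.7 ± 5.60 CPM in untreated cells (0.82 ± 0.16). With spike-in scaling neither Ier3 nor Irak3 was called.

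Many interferon-stimulated genes were higher by small amounts. Of 45 members 25 were higher, none was lower and 20 were not called, with a median of 0.28, and the same counts were found without untreated replicate 4. The sign of the median turned with spike-in scaling. It was -0.15 without untreated replicate 4, against -0.49 over all genes, with 1 gene higher and 0 lower. With all libraries it was -0.70, against -0.98 over all genes, with 0 higher and 24 lower. Oasl1, of the oligoadenylate synthetase-like family, had 66.4, 62.4, 82.9 and 56.1 CPM with S14, against 39.5, 29.6, 23.6 and 35.9 CPM without it (1.07 ± 0.18, adjusted p = 0.00012). Irf7, the transcription factor that amplifies type I interferon, had 1022, 959, 1056 and 995 CPM with S14, against 541, 481, 366 and 605 CPM in untreated libraries (1.02 ± 0.11, adjusted p = 1.0e-08). Both genes separated the groups. Gbp2, a guanylate-binding protein of cell-intrinsic defence, averaged 105 ± 8.04 CPM with S14 and 52.8 ± 10.2 CPM without (0.99 ± 0.16).

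Among 20 genes of MHC class I presentation and peptide loading 11 were higher, 0 were lower and 9 were not called (median 0.35). None was called with spike-in scaling without untreated replicate 4, where the median was -0.13, and 0 higher and 7 lower were called with all libraries. Psme2, a proteasome activator subunit, averaged 21.4 ± 1.89 CPM with S14 and 8.90 ± 3.07 CPM in untreated cells (1.26 ± 0.21). Tapbp, the peptide loading chaperone tapasin, averaged 1478 ± 46.3 CPM with S14 and 707 ± 113 CPM without (1.06 ± 0.12). H2-K1, a classical class I heavy chain, averaged 2072 ± 133 CPM with S14 and 1222 ± 171 CPM without (0.76 ± 0.09); class I genes are close relatives, and how the authors' counting split shared reads is not stated in those sources. Of 8 class II genes 0 were higher and 1 was lower with TMM, against 12.6% higher and 11.6% lower over all genes. With spike-in scaling it was 0 and 2 without untreated replicate 4, and 0 and 8 with all libraries. The difference between both lists was not tested. The class II gene lower with TMM was Cd74, the invariant chain. It had 465, 482, 408 and 462 CPM with S14, against 727, 699, 724 and 1423 CPM in untreated libraries. Untreated replicate 4 lay far above its group; the log2 fold change was -0.97 ± 0.17 (adjusted p = 0.00016) with it and -0.66 (adjusted p = 2.9e-09) without it.

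Of 17 costimulatory and checkpoint ligands 3 were higher and 3 lower, near the shares over all genes (12.6% higher and 11.6% lower). With spike-in scaling without untreated replicate 4 the counts were 0 and 5, and with all libraries 0 and 10. Cd83, a surface marker of activated antigen-presenting cells, had 21.3, 17.9, 17.7 and 15.9 CPM with S14, against 48.0, 49.6, 42.6 and 44.8 CPM without it (-1.34 ± 0.13, adjusted p = 8.8e-11). Cd274, which encodes the checkpoint ligand PD-L1, had 68.0, 60.1, 65.1 and 64.0 CPM with S14, against 34.1, 22.6, 33.3 and 19.4 CPM in untreated libraries (1.23 ± 0.18, adjusted p = 2.6e-05). The groups were separate for both genes, in opposite directions. The rise of Cd274 was not called with spike-in scaling (adjusted p = 0.069 without untreated replicate 4), while Cd83 stayed lower. In the inflammasome list 4 of 20 were higher and 0 lower, with a median of -0.06, or 6 and 0 without untreated replicate 4 (median -0.10). With spike-in scaling without untreated replicate 4, 1 was higher and 3 were lower, and with all libraries 0 and 14. For both lists, the counts with all libraries stand against 7533 lower of all 11717 genes. Nlrp3, the sensor that assembles the inflammasome, had 13.8, 14.4, 13.5 and 13.9 CPM with S14, against 19.9, 17.4, 21.7 and 22.8 CPM without it. All S14 values were below the untreated ones, at the edge of the test (-0.55 ± 0.21, adjusted p = 0.053). With spike-in scaling it was called lower, also without untreated replicate 4 (-0.99, adjusted p = 0.0051).

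In the list of Toll-like receptors and the TLR4 pathway 4 of 22 were higher and 2 lower, near the shares over all genes (12.6% and 11.6%). With spike-in scaling the counts were 0 and 4 without untreated replicate 4, and 0 and 15 with all libraries. Tlr4, the LPS receptor, averaged 80.6 ± 8.52 CPM with S14 and 92.3 ± 3.10 CPM in untreated cells (-0.19 ± 0.10, adjusted p = 0.16), and its co-receptor Cd14 averaged 653 ± 78.0 CPM with S14 and 835 ± 128 CPM without (-0.36 ± 0.17, adjusted p = 0.14). Neither passed the test with TMM. Both were called lower with spike-in scaling of all libraries, where 7533 of all 11717 genes were. Of 31 scavenger and phagocytic receptors 13 were higher and 8 lower with TMM, Marco the highest. The balance turned with spike-in scaling, to 4 higher and 8 lower without untreated replicate 4 and to 3 and 18 with all libraries. It turned over all genes as well. Clec4e, which encodes the glycolipid receptor Mincle, had 136, 134, 182 and 137 CPM with S14, against 33.1, 39.2, 29.8 and 35.4 CPM without it (2.10 ± 0.12, adjusted p = 4.4e-16). Clec4n, which encodes Dectin-2, a receptor of fungal mannans, had 36.9, 41.6, 64.5 and 55.9 CPM with S14, against 16.5, 9.17, 13.1 and 10.9 CPM in untreated libraries (2.00 ± 0.19, adjusted p = 1.2e-10). Neither gene's groups overlapped. The mannose receptor Mrc1 was lower, at 184 ± 19.2 CPM with S14 and 273 ± 52.8 CPM without (-0.57 ± 0.10, adjusted p = 6.0e-05). The macrophage marker Adgre1, which encodes F4/80, had 1912, 1910, 1975 and 2010 CPM with S14, against 1463, 1448, 1465 and 2379 CPM in untreated libraries. Untreated replicate 4 alone lay above the S14 libraries; the log2 fold change was 0.21 (adjusted p = 0.33) with it and 0.42 (adjusted p = 0.0080) without it.

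Alternative activation markers, genes known from interleukin-4 responses, were mixed, with 5 of 15 higher and 3 lower (median -0.11). Without untreated replicate 4 it was 4 and 3, and the median was 0.13. With spike-in scaling 1 was higher and 4 were lower without that library, and 2 and 6 with all libraries. Clec10a, a galactose-type lectin, had 45.6, 41.2, 31.2 and 36.8 CPM with S14, against 106, 82.7, 77.9 and 106 CPM without it (-1.26 ± 0.14, adjusted p = 5.3e-09). Klf4, a transcription factor of this state and of monocyte development, averaged 30.5 ± 1.66 CPM with S14 and 62.8 ± 18.1 CPM in untreated cells (-1.04 ± 0.14, or -0.82 without untreated replicate 4). Il4ra, the interleukin-4 receptor chain, was higher, at 149 ± 12.8 CPM with S14 and 73.2 ± 11.3 CPM without (1.03 ± 0.12). Arg1, the marker enzyme arginase 1, had 1 read over the S14 libraries and 0 over the untreated ones.

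Genes of the NRF2 antioxidant programme, which NRF2 drives when cells meet electrophiles or oxidants, were mostly higher with TMM. Of 28 members 21 were higher and 1 lower, with a median of 0.74, and the same counts were found without untreated replicate 4. With scaling to spike-in reads without that library 7 were higher and 1 lower with a median of 0.28; with all libraries 3 were higher and 6 lower and the median was below 0. Gsta3, a glutathione transferase, had 7.57, 8.64, 12.6 and 17.3 CPM with S14, against 0.968, 0.316, 0.559 and 1.23 CPM in untreated libraries (3.90 ± 0.50, adjusted p = 7.6e-08). Nqo1, a quinone reductase, had 12.2, 11.7, 21.5 and 25.8 CPM with S14, against 5.61, 4.11, 5.45 and 1.75 CPM without it (2.06 ± 0.30, adjusted p = 1.1e-06). S14 replicates 3 and 4 were the highest for both genes. The groups of Nqo1 did not overlap. It was named for the size of its change and not by the separation rule, but that choice also favours separate groups. Prdx1, a peroxide-reducing enzyme, had 2283, 2061, 2811 and 2862 CPM with S14, against 1085, 1084, 1075 and 633 CPM without it (1.37 ± 0.14, or 1.21 without untreated replicate 4). Fth1, the ferritin heavy chain that stores iron, had 32826, 31099, 35402 and 33368 CPM with S14, against 15891, 15543, 14637 and 10517 CPM in untreated libraries (1.23 ± 0.08, adjusted p = 4.0e-15). Prdx1 and Fth1 have near-identical processed copies in the genome, so that their exact counts are uncertain.

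The windows around the start of the 3 leading genes of this list are shown because NRF2 acts through a short promoter element. Capitals mark matches to the core of the antioxidant response element, TGACNNNGC on either strand. Gsta3 lies on chr1:21240335-21240634, plus strand, Nqo1 on chr8:107403156-107403455, minus strand, and Prdx1 on chr4:116685349-116685648, plus strand (RefSeq, GRCm38.p6). Gsta3 and Prdx1 hold 1 match each and Nqo1 holds none in this window. The core is in 7 of 22 windows of the list (31.8%) and in 15.2% of the windows of all tested genes.
Gsta3: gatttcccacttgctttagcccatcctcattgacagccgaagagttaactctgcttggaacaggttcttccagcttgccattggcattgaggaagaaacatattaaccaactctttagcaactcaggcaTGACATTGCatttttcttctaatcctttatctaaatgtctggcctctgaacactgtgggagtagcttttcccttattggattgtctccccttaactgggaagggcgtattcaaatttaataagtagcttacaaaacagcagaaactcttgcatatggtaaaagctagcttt
Nqo1: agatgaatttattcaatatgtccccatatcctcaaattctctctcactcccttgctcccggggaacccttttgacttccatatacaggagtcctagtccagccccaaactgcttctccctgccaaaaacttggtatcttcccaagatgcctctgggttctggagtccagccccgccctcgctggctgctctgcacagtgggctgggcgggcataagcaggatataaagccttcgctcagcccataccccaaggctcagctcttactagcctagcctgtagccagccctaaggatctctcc
Prdx1: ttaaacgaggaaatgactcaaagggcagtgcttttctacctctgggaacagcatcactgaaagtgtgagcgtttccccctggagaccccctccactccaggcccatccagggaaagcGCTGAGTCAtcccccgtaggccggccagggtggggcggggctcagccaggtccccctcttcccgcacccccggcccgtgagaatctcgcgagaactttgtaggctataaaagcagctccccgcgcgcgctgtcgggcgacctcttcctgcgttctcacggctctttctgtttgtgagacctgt

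Many stress genes that respond to amino acid supply and protein folding were also higher with TMM. In the list of the integrated stress response 11 of 21 were higher and 2 lower (median 0.57). Scaled to spike-in reads without untreated replicate 4 it was 4 and 3 with a median of 0.12, and with all libraries 0 and 7 with a median below 0. Nupr1, a stress-induced chromatin protein, averaged 109 ± 5.03 CPM with S14 and 39.3 ± 5.94 CPM without (1.46 ± 0.12). Mthfd2, a mitochondrial folate enzyme, averaged 71.1 ± 6.02 CPM with S14 and 26.7 ± 7.51 CPM in untreated cells (1.41 ± 0.13). Atf5, a transcription factor of this response, had 95.7, 128, 115 and 96.1 CPM with S14, against 35.2, 35.9, 45.0 and 56.2 CPM without it (1.33 ± 0.14, adjusted p = 1.4e-09). The groups were separate for all 3 genes. Of 24 ER chaperones and unfolded protein response genes 13 were higher and 1 lower (median 0.38). Hyou1, an ER chaperone, averaged 17.5 ± 2.77 CPM with S14 and 8.67 ± 3.11 CPM without (1.01 ± 0.24). The disulfide isomerases Pdia4 and Pdia6 had log2 fold changes of 0.90 ± 0.15 and 0.75 ± 0.09. The sign of the median of this list turned with spike-in scaling. Without untreated replicate 4 it was -0.11, against -0.49 over all genes, and no member was called. With all libraries 0 were higher and 12 lower.

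Many genes of energy metabolism were higher by small amounts. Of 28 glycolysis and hypoxia genes 14 were higher and 1 lower (median 0.36), and of 32 nuclear-encoded respiratory chain subunits 18 were higher and 0 lower (median 0.33). Both medians turned below 0 with spike-in scaling, to -0.03 and -0.16 without untreated replicate 4, against -0.49 over all genes. Then no respiratory chain subunit was called. Pfkfb3, which makes an activator of glycolysis, averaged 30.9 ± 3.07 CPM with S14 and 14.4 ± 4.07 CPM without (1.10 ± 0.15). The glycolytic enzymes Eno1 and Aldoa had log2 fold changes of 1.01 ± 0.16 and 0.89 ± 0.08; both have processed copies in the genome, so that their counts are uncertain. The respiratory chain subunits Cox6b1, Uqcrq and Ndufa1 stood at 0.78 ± 0.09, 0.78 ± 0.10 and 0.68 ± 0.15. For Cox6b1 the S14 libraries had 353, 349, 376 and 352 CPM, against 247, 211, 205 and 170 CPM in untreated libraries. Of 8 tested mitochondrial transcripts 0 were higher and 3 lower (median -0.20).

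Of 41 genes of sphingolipid synthesis, breakdown and signalling 5 were higher and 9 lower, with a median of -0.05, against 12.6% higher and 11.6% lower over all genes. The count of higher genes was near that share. With scaling to spike-in reads without untreated replicate 4 it was 1 and 13, and with all libraries 1 and 31. Psap encodes prosaposin, the precursor of the saposins that help lysosomal enzymes to break down sphingolipids. It had 2186, 2089, 1958 and 1672 CPM with S14, against 841, 586, 504 and 236 CPM in untreated libraries (1.87 ± 0.37, adjusted p = 0.00096; 1.62 without untreated replicate 4). The groups were separate, and untreated replicate 4 was the lowest library. The synthesis enzyme Kdsr, which reduces ketosphinganine, averaged 11.8 ± 2.11 CPM with S14 and 22.4 ± 6.22 CPM without (-0.93 ± 0.24, adjusted p = 0.0036). Ugcg, which turns ceramide into glucosylceramide, averaged 17.2 ± 1.55 CPM with S14 and 28.1 ± 3.87 CPM in untreated cells (-0.71 ± 0.17, adjusted p = 0.0012). The sphingomyelin synthase gene Sgms1 had 35.3, 32.7, 29.0 and 33.2 CPM with S14, against 46.4, 43.6, 42.8 and 49.2 CPM without it (-0.48 ± 0.13, adjusted p = 0.0041). The ceramide synthase Cers6, which makes ceramides with shorter acyl chains, did not pass (0.26 ± 0.10, adjusted p = 0.054; -0.23 with spike-in scaling without untreated replicate 4). Psap remained higher with spike-in scaling, and Kdsr, Ugcg and Sgms1 remained lower.

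Of 24 genes of cholesterol synthesis and uptake 1 was higher and 6 lower (median -0.26), or 1 and 4 without untreated replicate 4 (median -0.16). Over all genes 12.6% were higher and 11.6% lower with TMM. With spike-in scaling 0 were higher and 12 lower without that library, and 0 and 20 with all libraries. Srebf2, the transcription factor of this pathway, had 83.3, 104, 104 and 94.1 CPM with S14, against 106, 135, 127 and 241 CPM in untreated libraries (-0.66 ± 0.18, adjusted p = 0.0080). Untreated replicate 4 was far above its group, and without it the log2 fold change was -0.35 (adjusted p = 0.0099). The sterol enzyme Lss lost its call without that library (-0.39, adjusted p = 0.11, against -0.64 with it), and Sqle kept it (-0.65, against -0.62 with it). Of 19 LXR targets and cholesterol efflux genes 4 were higher and 4 lower with TMM. With spike-in scaling it was 0 and 4 without untreated replicate 4, and 0 and 12 with all libraries. Over all genes that scaling gave 133 higher and 2157 lower of 11905 without that library, and 106 and 7533 of 11717 with it. The sterol hydroxylase Cyp27a1 averaged 35.8 ± 4.82 CPM with S14 and 87.3 ± 26.4 CPM in untreated cells (-1.28 ± 0.16). Nr1h3, which encodes LXR alpha itself, averaged 45.9 ± 4.45 CPM with S14 and 23.1 ± 3.43 CPM without (1.00 ± 0.13), and the cholesterol exporter Abca1 averaged 114 ± 6.44 CPM with S14 and 81.8 ± 10.4 CPM without (0.48 ± 0.13, adjusted p = 0.0047). Neither Nr1h3 nor Abca1 was called with spike-in scaling.

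In the list of PPAR, lipid droplet and fatty acid use genes 5 of 31 were higher and 6 lower, again near the shares over all genes, or 0 and 9 with spike-in scaling without untreated replicate 4. Fabp5, a fatty acid carrier, had 264, 284, 278 and 246 CPM with S14, against 126, 129, 116 and 64.4 CPM without it (1.30 ± 0.15, adjusted p = 4.0e-07; 0.64, adjusted p = 0.054, with spike-in scaling without untreated replicate 4). Pparg, the nuclear receptor of lipid storage, averaged 18.4 ± 4.54 CPM with S14 and 36.3 ± 6.82 CPM in untreated cells (-0.98 ± 0.21, adjusted p = 0.00059). Of 36 lysosome genes 12 were higher and 4 lower (median 0.08; -0.39 with spike-in scaling without untreated replicate 4, with 0 higher and 6 lower). The cathepsin gene Ctsz averaged 1543 ± 62.4 CPM with S14 and 938 ± 81.7 CPM without (0.72 ± 0.07).

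**Figure D3:**
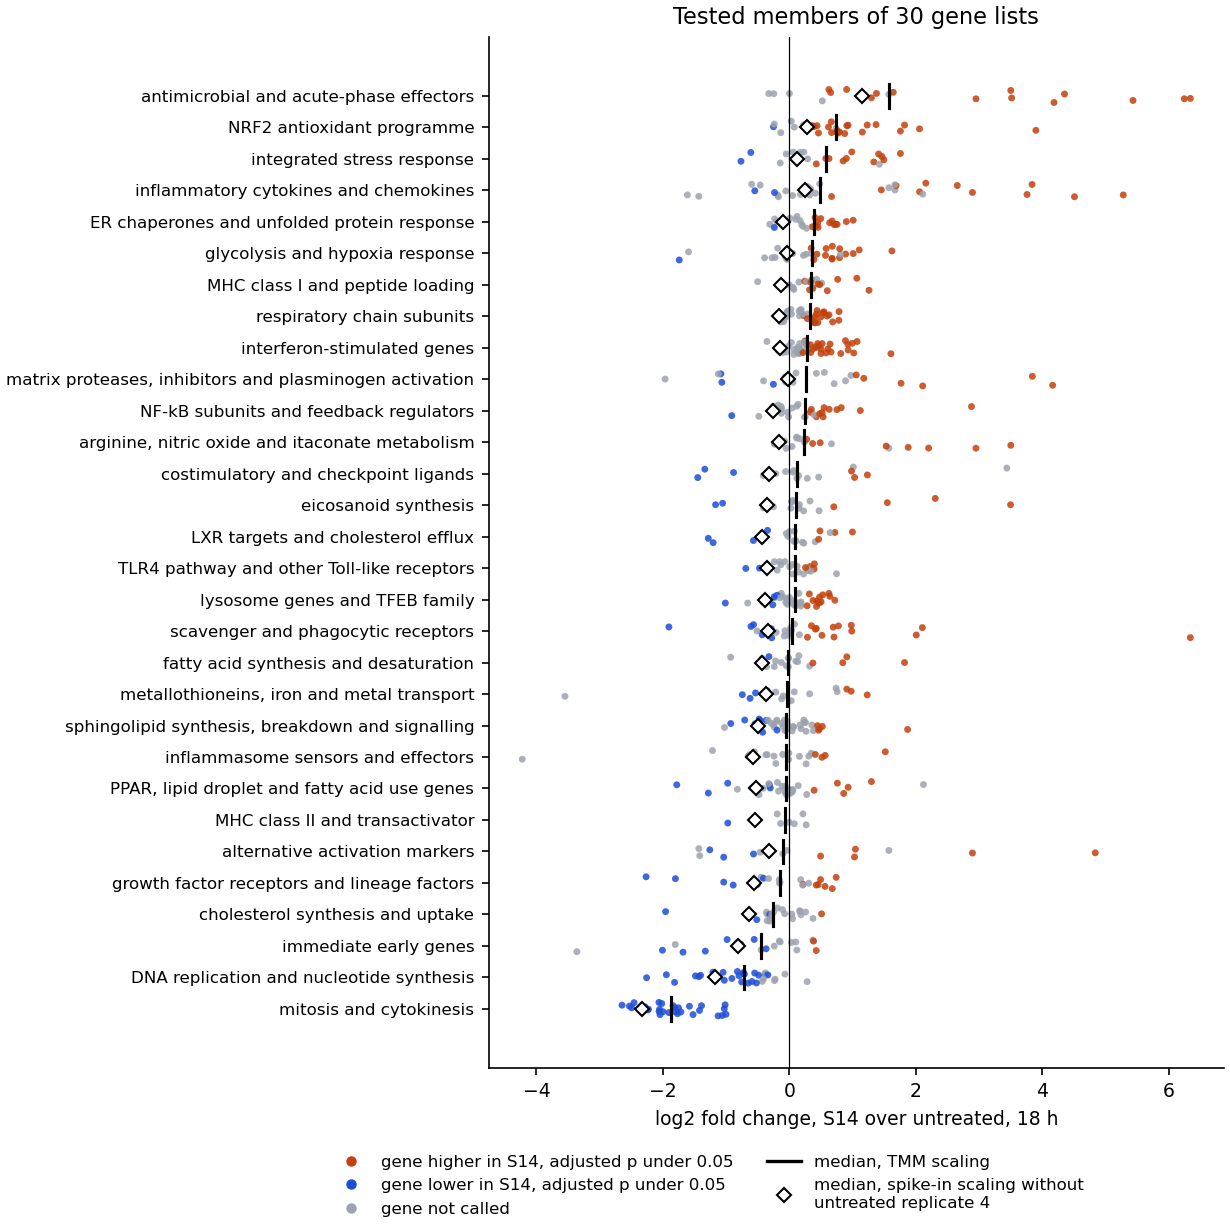
Log2 fold change, S14 over untreated at 18 h (horizontal axis), of each tested member of 30 gene lists, ordered by their median (black bar; open diamond, median with spike-in scaling without untreated replicate 4). Antimicrobial effectors have the highest median (1.57) and mitosis the lowest (-1.87); with spike-in scaling most diamonds lie below 0.

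Genes of cell division fell. In the list of mitosis and cytokinesis all 30 members listed were tested, and 30 were lower (median -1.87), with or without untreated replicate 4 and under both spike-in scalings. The members of this list ran from -2.65 to -1.003. Ube2c, which extends ubiquitin chains for the anaphase-promoting complex, had 17.5, 13.2, 17.5 and 18.6 CPM with S14, against 76.4, 89.0, 100 and 153 CPM in untreated libraries (-2.65 ± 0.18, adjusted p = 1.1e-11). Untreated replicate 4 was the highest, and without it the log2 fold change was -2.41. Hmmr, a spindle-associated protein, had 6.58, 8.03, 4.88 and 6.96 CPM with S14, against 27.9, 30.5, 42.5 and 52.5 CPM without it (-2.53 ± 0.21, adjusted p = 3.9e-12). Ccna2, the cyclin of S phase and mitotic entry, had 8.97, 8.64, 6.65 and 5.61 CPM with S14, against 32.5, 44.7, 49.9 and 42.2 CPM in untreated libraries (-2.50 ± 0.19, adjusted p = 1.1e-13). Ube2c, Hmmr and Ccna2 were among the 12 lowest, so that separate groups were a condition of their choice. In bulk samples, fewer dividing cells and less of these transcripts per dividing cell cannot be told apart.

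Most genes of DNA replication and nucleotide synthesis were lower. Of 32 members 25 were lower and 0 higher (median -0.72), 22 and 0 without untreated replicate 4, and 26 and 0 with spike-in scaling without it. Rrm2, the regulated subunit of ribonucleotide reductase, had 11.6, 5.76, 8.86 and 9.21 CPM with S14, against 32.5, 48.7, 41.1 and 47.4 CPM without it (-2.26 ± 0.19, adjusted p = 4.5e-12). Tk1, a thymidine kinase, averaged 11.3 ± 2.41 CPM with S14 and 43.7 ± 14.0 CPM in untreated cells (-1.95 ± 0.18). Tyms, the thymidylate synthase gene, averaged 4.25 ± 0.0608 CPM with S14 and 15.0 ± 2.09 CPM without (-1.82 ± 0.21). The groups were separate for all 3 genes. Outside the lists, the kinesins Kif2c and Kif23, the mitotic kinase gene Pbk, and Pimreg and Prr11 ranged from -2.93 to -2.46, and Ankle1, a DNA endonuclease gene, stood at -3.49 ± 0.40.

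The windows of the 2 leading mitosis genes are shown because such promoters are known for a cell cycle homology region (CHR), TTTGAA, and for CCAAT boxes. Capitals mark both motifs on either strand, and neighbouring CCAAT matches may overlap. Ube2c lies on chr2:164769679-164769978, plus strand, with 7 matches, and Hmmr on chr11:40733388-40733687, minus strand, with 6 (RefSeq, GRCm38.p6). TTTGAA is in 20 of the 25 windows found for the mitosis list (80%), in 3 of 27 of the DNA replication list (11.1%) and in 12.1% of the windows of all tested genes. CCAAT is in 22 of 25 mitosis windows (88%), in 16 of 27 replication windows (59.3%) and in 39.2% of all.
Ube2c: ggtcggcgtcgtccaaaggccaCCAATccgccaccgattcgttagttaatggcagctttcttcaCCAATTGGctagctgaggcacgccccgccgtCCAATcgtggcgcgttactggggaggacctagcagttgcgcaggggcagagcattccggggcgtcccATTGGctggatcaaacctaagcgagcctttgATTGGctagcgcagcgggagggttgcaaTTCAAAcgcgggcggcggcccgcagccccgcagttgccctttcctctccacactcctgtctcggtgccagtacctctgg
Hmmr: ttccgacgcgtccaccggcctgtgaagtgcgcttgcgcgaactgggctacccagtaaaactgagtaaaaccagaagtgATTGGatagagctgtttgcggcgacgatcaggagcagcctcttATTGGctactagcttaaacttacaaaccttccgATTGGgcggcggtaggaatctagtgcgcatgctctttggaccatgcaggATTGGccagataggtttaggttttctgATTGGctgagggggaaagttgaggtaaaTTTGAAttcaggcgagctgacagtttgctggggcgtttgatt

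Other genes among the lowest were not of the cell cycle. Ighm, the immunoglobulin mu heavy chain, had 23.7, 12.6, 19.3 and 21.1 CPM with S14, against 123, 95.6, 136 and 173 CPM in untreated libraries (-2.78 ± 0.17, adjusted p = 2.4e-15). Separate groups were a condition of its choice. Of the 15 B and plasma cell markers, 5 held no read in the 8 libraries, among them Cd79a and Pax5, and the sum without Ighm ran from 8.31 to 12.4 CPM with S14 and from 5.45 to 12.1 CPM without. Gprc5c, an orphan receptor gene, averaged 3.43 ± 0.823 CPM with S14 and 22.4 ± 4.78 CPM in untreated cells (-2.69 ± 0.32). Cilp2, a matrix protein gene, averaged 4.16 ± 1.07 CPM with S14 and 26.9 ± 6.63 CPM without (-2.68 ± 0.33). Among growth factor receptors and lineage factors 7 of 22 were higher and 6 lower, or 0 and 9 with spike-in scaling without untreated replicate 4. Id3, an inhibitor of basic helix-loop-helix factors, had 1.20, 1.65, 4.21 and 1.57 CPM with S14, against 8.32, 8.85, 11.7 and 12.3 CPM in untreated libraries (-2.27 ± 0.34, adjusted p = 9.1e-06). Cx3cr1, the fractalkine receptor, had 34.9, 29.8, 47.9 and 56.8 CPM with S14, against 105, 86.3, 118 and 281 CPM without it (-1.80 ± 0.32 with untreated replicate 4 and -1.29, adjusted p = 0.00015, without it).

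Some genes of matrix proteases and lipid mediators also differed. The TMM counts of the lists in this paragraph stand against 12.6% higher and 11.6% lower over all genes tested. Mmp14, a membrane-bound matrix protease, had 115, 120, 189 and 178 CPM with S14, against 6.19, 4.11, 5.45 and 18.4 CPM in untreated libraries (4.16 ± 0.38, adjusted p = 1.1e-07; 4.84 without untreated replicate 4, the highest of its group). Of 22 members of the matrix list 6 were higher and 3 lower, or 4 and 4 with spike-in scaling without untreated replicate 4. Mmp8, a collagenase best known from neutrophils, averaged 43.9 ± 10.6 CPM with S14 and 12.8 ± 2.40 CPM without (1.76 ± 0.18). Of the 3 neutrophil markers tested 2 were higher, Mmp8 and S100a8, a calgranulin gene. S100a8 had 4.19, 2.26, 6.43 and 7.86 CPM with S14, against 2.71, 1.11, 2.94 and 1.05 CPM in untreated libraries (1.38 ± 0.38, adjusted p = 0.0056). Its groups overlapped, and it was not called with spike-in scaling (adjusted p = 0.17 without untreated replicate 4), by limma voom (adjusted p = 0.078) or in the 8 libraries alone (adjusted p = 0.051). Of the 15 neutrophil markers, 7 held no read in the 8 libraries, among them Ly6g, Mpo and Ltf, and the sum without Mmp8 ran from 2.47 to 9.31 CPM with S14 and from 1.74 to 5.81 CPM in untreated cells; its part in the result was not tested. In the eicosanoid list 4 of 18 were higher and 3 lower, or 3 and 4 with spike-in scaling without untreated replicate 4. Pla2g7, which degrades platelet-activating factor, averaged 280 ± 37.7 CPM with S14 and 95.9 ± 26.2 CPM without (1.55 ± 0.13), and Ptgs1, the constitutive cyclooxygenase, averaged 8.57 ± 2.87 CPM with S14 and 19.2 ± 5.29 CPM in untreated cells (-1.17 ± 0.28). Among 21 immediate early genes 2 were higher and 7 lower, metal transport genes had 3 higher and 4 lower of 16, and fatty acid synthesis genes 4 higher and 1 lower of 19. With spike-in scaling without untreated replicate 4 these counts were 0 and 9, 1 and 5, and 1 and 2.

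The response at 18 h was set against that at 3 h, whose libraries are all different, by testing the difference of both fold changes. At 3 h S14 changed 1786 genes, 1060 higher (9.05% of genes tested) and 726 lower (6.2%). Of the 1480 genes higher at 18 h, 378 (25.5%) were also higher at 3 h, which is 35.7% of those higher at 3 h. Of the 1364 lower at 18 h, 188 (13.8%) were lower at 3 h, or 25.9% of those lower at 3 h. Opposite calls were made for 41 genes higher at 18 h and lower at 3 h and for 83 genes lower at 18 h and higher at 3 h. The difference itself passed for 1944 genes, 892 with a more positive response at 18 h (7.61%) and 1052 with a more negative one (8.98%). With spike-in scaling without untreated replicate 4 of 18 h the difference passed for 1427 genes.

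Many early inflammatory genes had smaller responses at 18 h. The difference was negative and called for 32 of 45 interferon-stimulated genes and positive for 1, with a median response of 0.28 at 18 h and 1.12 at 3 h. For cytokines and chemokines it was negative for 11 of 31 and positive for 1 (median response 0.48 at 18 h and 2.43 at 3 h), and for NF-kB regulators negative for 18 of 28 and positive for 1 (0.24 at 18 h and 1.07 at 3 h). With spike-in scaling without untreated 18 h replicate 4, 34 interferon-stimulated genes, 16 cytokines and 20 NF-kB regulators had a called negative difference. Tnf had a log2 fold change of 0.32 at 18 h and 1.99 at 3 h (difference -1.68, adjusted p = 7.3e-11). For Il1b it was 2.06 at 18 h and 5.35 at 3 h (difference -3.29, adjusted p = 0.0084), and for Cxcl10 0.41 at 18 h and 2.65 at 3 h (difference -2.24, adjusted p = 3.9e-06). Nlrp3 stood at -0.55 at 18 h and 1.64 at 3 h, and Cd83 at -1.34 at 18 h and 1.63 at 3 h, with called differences of -2.19 and -2.97. The 6 most negative differences that met the level rule were those of Adamts4, Cilp2, Cxcl1, Efna2, Il4i1 and Lipg. Adamts4, a matrix protease, rested on 1 read with S14 and 7 reads in untreated cells at 18 h, all 7 of them in replicate 3, and on 207 reads with S14 and 3 reads in untreated cells at 3 h; its difference (-7.71, adjusted p = 0.00018) was not called without untreated 18 h replicate 3 (-4.19, adjusted p = 0.94). Efna2, an ephrin ligand gene, stood at -2.16 at 18 h and 1.95 at 3 h (difference -4.11, adjusted p = 4.8e-07), and Il4i1, an amino acid oxidase gene, at 0.44 at 18 h and 4.38 at 3 h (difference -3.94). The chemokine Cxcl1 stood at -1.61 at 18 h and 2.83 at 3 h, and the matrix gene Cilp2 at -2.68 at 18 h and 2.85 at 3 h. The endothelial lipase gene Lipg stood at -0.20 at 18 h, or 0.51 without untreated replicate 4, and at 3.40 at 3 h.

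Most mitosis genes, and with TMM also many antioxidant and respiratory chain genes, had their larger responses at 18 h. The difference was positive for 15 of 28 NRF2 genes and negative for 3 (median response 0.74 at 18 h and 0.26 at 3 h), and positive for 14 of 32 respiratory chain subunits and negative for 0 (0.33 at 18 h and 0.01 at 3 h). It was negative for 28 of 30 mitosis genes and positive for 0 (-1.87 at 18 h and -0.20 at 3 h), and negative for 10 of 32 replication genes (-0.72 at 18 h and -0.28 at 3 h). Antimicrobial effectors had 5 positive and 1 negative of 19, but their median response was 1.57 at 18 h and 2.64 at 3 h. Their median difference was -0.18, and with spike-in scaling without untreated 18 h replicate 4 the counts were 2 and 2. Scaled to spike-in reads without untreated 18 h replicate 4, the median difference of the mitosis list was -2.27, with 29 negative. There the medians of the NRF2 and respiratory chain lists turned to -0.04 and -0.36, against -0.58 over all genes, with 2 positive and 4 negative NRF2 genes and no respiratory chain gene called. The 6 most positive differences were those of Slpi, Marco, Ccl8, Gsta3, Sirpb1c and Nqo1. Slpi stood at 4.18 at 18 h and 0.69 at 3 h (difference 3.49, adjusted p = 0.00021), Marco at 6.34 at 18 h and 3.09 at 3 h (3.25, adjusted p = 0.00092) and Ccl8 at 3.84 at 18 h and 1.02 at 3 h (2.82, adjusted p = 0.0035). The difference of Marco was not called by limma voom with library weights (adjusted p = 0.134). Gsta3 stood at 3.90 at 18 h and 1.11 at 3 h, Nqo1 at 2.06 at 18 h and -0.27 at 3 h, and Sirpb1c, a signal-regulatory protein gene, at 1.64 at 18 h and -1.02 at 3 h. Psap had 1.87 at 18 h and -0.35 at 3 h (difference 2.21, adjusted p = 0.0054). By contrast Ccl5 (5.28 at 18 h and 5.19 at 3 h), Lcn2 (5.43 at 18 h and 4.99 at 3 h) and Acod1 (3.50 at 18 h and 3.49 at 3 h) had no called difference.

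**Figure D4:**
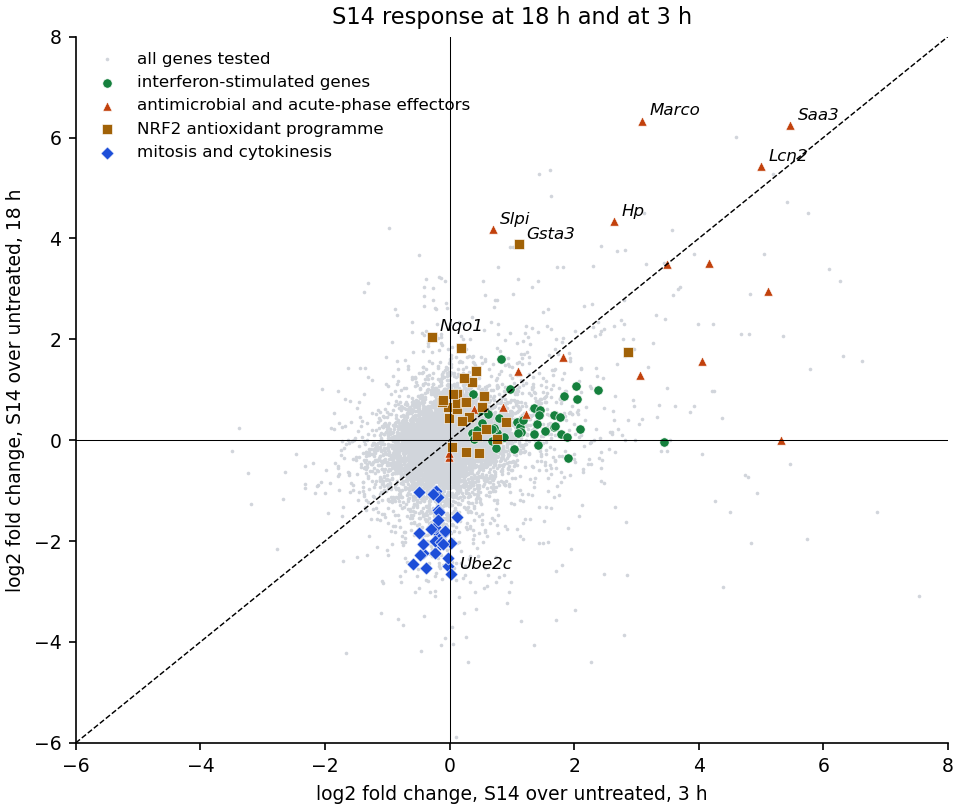
Log2 fold change with S14 at 18 h (vertical axis) against that at 3 h (horizontal axis) for all tested genes in grey, with 4 gene lists marked; the dashed line marks equal responses. Interferon-stimulated genes lie to the right near the horizontal line (medians 0.28 at 18 h and 1.12 at 3 h), and mitosis genes lie below it (-1.87 at 18 h and -0.20 at 3 h); with spike-in scaling without untreated replicate 4 the 18 h medians are -0.15 and -2.33.

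Cells given S14 for 18 h were set directly against those given LPS, since values against the same untreated libraries share their error. S14 was higher for 2496 genes and lower for 2500, each 21.3% of the genes tested. With spike-in scaling 1915 genes passed, or 3697 without untreated replicate 4. That library is in neither group and enters only the spread and filter shared by all 24 libraries. Most genes of these inflammatory lists were lower with S14: 42 of 45 interferon-stimulated genes were lower and 0 higher, and 26 of 31 cytokines lower and 2 higher. With spike-in scaling 31 interferon-stimulated genes and 24 cytokines were lower, or 41 and 26 without untreated replicate 4. Il1b averaged 13.0 ± 3.47 CPM with S14 and 1696 ± 867 CPM with LPS (-7.03, adjusted p = 2.5e-11), and Nos2 3.09 ± 1.82 CPM with S14 and 405 ± 41.7 CPM with LPS (-7.05). Saa1, a serum amyloid, had 0 reads with S14 and 271 reads with LPS, at least 98.4-fold lower with S14 at a floor of 3 counts over the group. Arg1 had 1 read with S14 and 640 with LPS, a ratio of 697 in favour of LPS (95% exact counting interval 125 to 27590), and Upp1, a uridine phosphorylase gene, 1 and 255 reads, a ratio of 278 (49.4 to 11020). Only counting error is covered by these intervals and floors. Timp1, a protease inhibitor, stood at -7.17 (adjusted p = 3.2e-17).

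Most genes of mitosis and of cholesterol synthesis were higher with S14 than with LPS. Of 30 mitosis genes 28 were higher with S14 than with LPS and 1 lower, and of 24 cholesterol genes 21 were higher and 0 lower. With spike-in scaling these counts were 24 and 1 for mitosis and 13 and 0 for cholesterol, in the same directions. Without untreated replicate 4 they were 26 and 1, and 18 and 0. Ighm averaged 19.2 ± 4.77 CPM with S14 and 0.584 ± 0.436 CPM with LPS (4.99, adjusted p = 1.4e-14), and Clec10a 38.7 ± 6.15 CPM with S14 and 1.599 ± 0.882 CPM with LPS (4.56). Pclaf, a PCNA-binding factor gene, stood at 4.76, the guanine exchange factor gene Rasgrp3 at 5.82 and the class II transactivator Ciita at 4.13. Hpgd, which inactivates prostaglandins, had 253 reads with S14 and 2 with LPS, a ratio of 116 (31.8 to 964). Of the 28 NRF2 genes 3 were higher and 18 lower with S14 than with LPS (median -0.80). With spike-in scaling it was 1 and 16, or 2 and 18 without untreated replicate 4. Nqo1, one of the 3 higher with TMM, was at 17.8 ± 6.99 CPM with S14 and at 4.06 ± 0.266 CPM with LPS (2.12, adjusted p = 3.8e-07). For Slpi (20.6 CPM with S14 and 21.9 with LPS), Gsta3 (11.5 with S14 and 6.12 with LPS), Fabp5 (268 with S14 and 269 with LPS) and Psap (1976 with S14 and 2042 with LPS) the difference between S14 and LPS missed the threshold, which is no evidence that the responses are equal. The log2 difference was -0.09 ± 0.29 for Slpi and 0.90 ± 0.40 for Gsta3. It was -0.0042 ± 0.15 for Fabp5 and -0.05 ± 0.36 for Psap (SE).

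**Figure D5:**
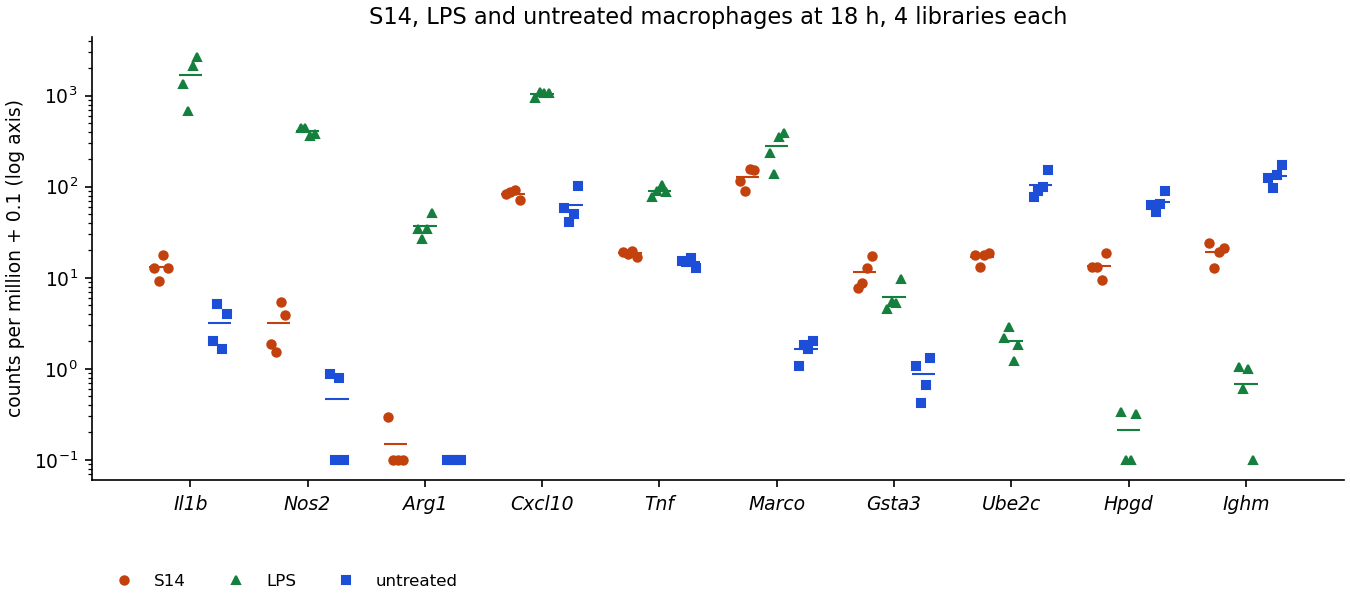
Level of 10 genes in each library at 18 h (vertical axis, CPM plus 0.1, log axis), S14 in orange circles, LPS in green triangles and untreated in blue squares, with group means as lines. Il1b, Nos2 and Arg1 are highest with LPS, Gsta3 averages 11.5 CPM with S14 and 6.12 CPM with LPS, and Ube2c, Hpgd and Ighm with S14 lie between untreated and LPS levels.

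Markers of most other cell types were few, apart from those of the osteoclast list. Of the 11 lists of markers, the 10 of other cell types held between 2 and 8 tested genes each, and apart from Ighm and Mmp8 their most abundant members were Bst2, Cd4, Kit, Ccr3, Acta2, Kdr, Pf4 and Tnfrsf11a. The erythroid and megakaryocyte sum ran from 123 to 148 CPM with S14 and from 39.6 to 52.5 CPM in untreated cells. Without Pf4, a chemokine that macrophages also make, it ran from 1.595 to 3.91 CPM with S14 and from 0.632 to 1.58 CPM in untreated cells, and 8 of its 16 markers, the globin genes among them, held no read. The endothelial sum ran from 60.4 to 88.3 CPM with S14 and from 51.7 to 68.1 CPM in untreated cells, or from 10.6 to 22.6 CPM with S14 and from 15.0 to 31.3 CPM in untreated cells without Kdr, with Tek, Tie1, Emcn, Cldn5 and Plvap at 0. The fibroblast sum ran from 2.69 to 6.87 CPM with S14 and from 0.949 to 3.10 CPM in untreated cells. For dendritic markers it was 497 to 566 CPM with S14 and 374.5 to 851 CPM untreated. Without Bst2 these were 4.88 to 9.47 and 4.26 to 11.4 CPM. The osteoclast sum was lower with S14, at 210 to 221 CPM, than in untreated cells, at 242 to 306 CPM. Without Tnfrsf11a it was 130.5 to 143 CPM with S14 and 167 to 208.8 CPM untreated. Of the tested markers, Pf4 and the fibroblast marker Acta2 were higher beside the neutrophil genes, Cd247 of the T and NK cell list and Siglecf of the eosinophil list were lower beside Ighm, and 2 of 8 osteoclast genes were higher and 1 lower; no dendritic, mast or endothelial marker was called. The part of other cells in the results was not tested.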

How the data were processed

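RNA of bone marrow-derived macrophages was sequenced from the 3' end of transcripts (QuantSeq FWD), from 150 ng of RNA with 15 PCR cycles per the labels' protocols. The authors deposited a table of read counts per gene and a second table whose signal is the read count divided by a size factor per library, with spike-in rows. Per the submitters' processing notes, cutadapt 1.18, FastQC, STAR 2.6.1a, featureCounts 1.6.4 of Subread, DESeq2 and the mouse build GRCm38 were used; their order, the strand setting, the annotation and the handling of reads shared between genes are not stated in the sources used here. Dividing the second table by its steps gave whole reads for 100% of values, within 6.11e-10 of a whole number, and 7689 genes differed in reads between both tables.

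Counts of 55401 genes in 24 libraries were filtered with filterByExpr (minimum count 10, minimum total 15), which left 11717 genes, and scaled by TMM. Each gene was fitted with 1 mean for each of 6 groups, which leaves 18 residual degrees of freedom, by edgeR 4.0.16 in R 4.3.3 with the robust quasi-likelihood F test. Genes were called at a Benjamini-Hochberg adjusted p under 0.05 over all genes tested. Standard errors come from the size of the log2 change over the root of its F statistic. Levels are CPM of the TMM-scaled library, given as mean ± SD over 4 libraries. The alternatives used limma 3.58.1 and DESeq2 1.42.0. The test was checked on simulated counts, drawn with the same spread for all genes and no outlying library. That check does not cover a library like untreated replicate 4.

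Named genes were the 12 highest and 12 lowest called genes whose groups did not overlap and whose higher group averaged 10 CPM or more, the 3 members of each list with the largest change at that level, 18 index genes, and the 6 highest and 6 lowest for the other contrasts; genes with no symbol, predicted genes and pseudogenes were left out. Some list members so chosen are given only within their list's counts, and 1 index gene is not reported here. S100a8, Acta2, Cd247 and Siglecf were chosen after their values were seen. Marco, Acod1, Nos2 and other genes in more than 1 list count under each. The members and lists were chosen with earlier results of these data known. Markers of 11 cell types and mitochondrial transcripts were summed per library. Promoter windows came from RefSeq (GRCm38.p6).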

Additional observations from a re-analysis of the deposited data

Results flagged for a closer look

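In 15 of 200 sets of 4 libraries of a named gene, 1 library lay apart from the other 3 by Dixon's criterion, which chance meets in about 1 in 20. Untreated replicate 4 was that library 9 times. It was the highest of its group for Mmp14 (18.4 CPM), Cd14 (1027 CPM), Adgre1 (2379 CPM), Cd74 (1423 CPM), Klf4 (89.6 CPM), Lipg (16.3 CPM) and Cx3cr1 (281 CPM), and the lowest for Hyou1 (4.03 CPM) and Prdx1 (633 CPM). Untreated replicate 1 was the highest for Ccl8 (13.0 CPM). S14 replicate 3 was the highest for Clec4e (182 CPM), Cox6b1 (376.5 CPM), Uqcrq (323 CPM) and Id3 (4.21 CPM), and S14 replicate 4 the lowest for Il4ra (130.0 CPM).

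The S14 response at 18 h differed from that at 3 h for 70 of the named genes, by the test of the difference with edgeR. The log2 difference, 18 h minus 3 h, was positive for Slpi (3.49), Marco (3.25), Ccl8 (2.82), Gsta3 (2.79), Sirpb1c (2.67), Nqo1 (2.33), Psap (2.21), Mmp8 (2.19), Clec4n (1.79), Hp (1.71), Ass1 (1.68), Fabp5 (1.41), Pdia4 (1.36), Pla2g7 (1.34), Atf5 (1.26), Eno1 (1.05), Fth1 (0.99), Mthfd2 (0.99), Prdx1 (0.95), Aldoa (0.81), Uqcrq (0.81), Saa3 (0.77), Cox6b1 (0.76), Pdia6 (0.73), Tapbp (0.71), Ndufa1 (0.68), Il4ra (0.57), H2-K1 (0.55), Tlr4 (0.54), Nupr1 (0.51) and Ctsz (0.51). Among division and replication genes it was negative for Ankle1 (-3.08), Ube2c (-2.67), Ccna2 (-2.47), Pimreg (-2.44), Kif2c (-2.44), Pbk (-2.41), Prr11 (-2.31), Hmmr (-2.15), Rrm2 (-1.95), Kif23 (-1.87), Tyms (-1.69) and Tk1 (-1.51). It was also negative for Adamts4 (-7.71), Cilp2 (-5.53), Cxcl1 (-4.44), Efna2 (-4.11), Il4i1 (-3.94), Lipg (-3.60), Il1b (-3.29), Cd83 (-2.97), Ighm (-2.88), Cxcl10 (-2.24), Nlrp3 (-2.19), Gprc5c (-2.17), Id3 (-1.83), Tnf (-1.68), Cx3cr1 (-1.49), Gbp2 (-1.39), Cd74 (-1.27), Cd274 (-1.23), Cers6 (-1.14), Clec10a (-1.07), Sgms1 (-1.02), Cd14 (-1.003), Oasl1 (-0.96), Srebf2 (-0.95), Lss (-0.94), Sqle (-0.73) and Mrc1 (-0.47). Scaled to spike-in reads, the median difference over all genes was -1.08, so that small positive differences depend on the scaling.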

How the results depend on the processing

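S14 against untreated gave 2844 genes, and between 2057 and 2911 under DESeq2 size factors, no filter, the DESeq2 Wald test, limma voom, the second table and the 8 libraries alone. Whether the numbers of the labels pair the libraries is not settled: the same-number correlations were 0.13, 0.145, -0.0325 and 0.185, so that 3 of 4 passed the criterion of 0.1 that all had to pass, and different-number ones ran from -0.206 to 0.09. By their values, 6 of 8 libraries correlated best with their own number. The replicate block gave 2948 genes; with it Tnf (adjusted p = 0.0375), Nlrp3 (0.00619), Cd14 (0.00396), Cers6 (0.0390) and Cxcl1 (0.0225) were called as well. Leaving out 1 library gave 2327 to 3087 genes (1247 to 1614 higher, 1070 to 1473 lower), 1646 to 2116 for the time difference against 1944, and 4527 to 4845 for S14 against LPS against 4996. An adjusted p under 0.01 left 1822 genes, 830 of them lower. Spike-in scaling gave 7639 genes (106 higher, 7533 lower), or 133 higher and 2157 lower without untreated replicate 4, 4115 for the time difference and 1915 for S14 against LPS; the shift of all genes is part of that scaling. The difference in spike-in share was 0.0113 to 0.0208 percentage points with 1 library left out, with an exact permutation p of 0.0571, the smallest that 4 against 3 can give. In all, 3 settings without untreated replicate 4 were added after seeing the data.

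With spike-in scaling the log2 fold change turned negative for Pdia4 (-0.0061), Aldoa (-0.021), Irf7 (-0.0723), Uqcrq (-0.0777), Ndufa1 (-0.0942), Cox6b1 (-0.139), H2-K1 (-0.158), Pdia6 (-0.205), Il4i1 (-0.325), Irak3 (-0.239), Ctsz (-0.297), Abca1 (-0.578), Tnf (-0.594), Il10 (-0.625), Cers6 (-0.694), Cxcl10 (-0.847) and Adgre1 (-0.967). Without untreated replicate 4 this held for Adgre1 (-0.0548), Tnf (-0.228), Cers6 (-0.235) and Il4i1 (-0.196). Lipg, not called at -0.20, was positive without untreated replicate 4 (0.505, with spike-in scaling 0.0277, in the 8 libraries alone 0.511, with voom 0.464, with the block 0.544) and with voom in all libraries (0.351); leaving out 1 library gave -0.454 to 0.505. Srebf2 was not called in the 8 libraries alone (adjusted p = 0.0725), and the time difference of Gsta3 not with spike-in scaling (1.78, adjusted p = 0.123) or without untreated 3 h replicate 1 (2.50, adjusted p = 0.0501). The causes were not tested.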
